A study of Mus musculus with 3 samples.

Results

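The regions described are the H3K4me1 enriched regions of cytokine treated mouse islets that contain the start site (TSS) of a protein-coding gene. Each region of chromosomes 1 to 19 was kept when at least 1 annotated transcript of a protein_coding gene of GENCODE M1 began inside it, whatever the region's width. Of the 65709 regions in the list, 65124 lay on these chromosomes, and 9052 of them were over a coding TSS (13.9%, 95% exact binomial interval 13.6 to 14.2). They held 32.9 Mb, or 23.7% of the bases covered by H3K4me1 on these chromosomes. Seen from the genes, 8702 of 21418 protein-coding genes had a TSS inside a region (40.6%, interval 40.0 to 41.3), and 6934 had their 5′-most TSS inside one (32.4%). All intervals here are 95% exact binomial ones and cover counting error only.

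Histone 3 lysine 4 monomethylation (H3K4me1) is a histone mark of regulatory chromatin, laid down by methyltransferases of the Mll and Set1 families within TrxG complexes, of which Wdr5 and Ash2l are shared subunits. It is best known from enhancers. At the promoters of active genes with many CpG dinucleotides the nucleosomes next to the TSS usually carry trimethylation instead, and H3K4me1 lies on either side, whereas promoters with few CpG often lack this arrangement. Starts inside an H3K4me1 region are thus a mixed group, and the values below set out which genes and which kinds of start they belong to.

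By the sample labels the islets came from CD1 mice of 8 to 12 weeks, while the study's methods name ICR mice and a narrower age range. They were cultured for 4 days with IFNγ at 1.6 ng/ml, IL-1β at 0.25 ng/ml and TNFα at 0.16 ng/ml, cytokines that β-cells meet in the inflamed islet of type 1 diabetes. Chromatin was precipitated with an antibody to H3K4me1, and DNA of 4 ChIP experiments was pooled into 1 library. No replicate was available, so no difference below was tested, and untreated islets were not analysed here. Whole islets hold β-cells together with other endocrine, vascular and immune cells, and a region does not tell from which of them it came. Region edges fell on a 200 bp grid, and the list gave neither read counts nor heights, so that the depth behind a region is unknown.

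Starts of 6 genes that were covered are shown, 2 from each class of CpG content defined below, so that β-cell and cytokine response genes can be set beside each other. The class is that of the gene's 5′-most TSS. By it Ins2 and G6pc2 are CpG-poor, Nfkbia and Cxcl10 intermediate, and Rela and Foxa1 CpG-rich. For Ins2 and G6pc2 the start shown is another TSS, which was not classed itself. Each is the stretch of 120 bases directly upstream of the 5′-most covered TSS of a protein-coding transcript, in mm9, read 5′ to 3′ on the gene's strand. Capitals mark matches, on either strand, to a motif out of 16 that were searched. Ins2, an insulin gene, is at chr7:149865632-149865751 on the minus strand and holds a TATA box (TATAAA) that begins 12 bases before the TSS. G6pc2, the islet catalytic subunit of glucose-6-phosphatase, is at chr2:69057908-69058027 on the plus strand and holds none of the motifs. Nfkbia, the inhibitor that holds NF-κB in the cytoplasm, is at chr12:56593635-56593754 on the minus strand with an ISRE core (GAAANNGAA), an NF-κB site (GGANTTTCC) and a GC box (GGGCGG). Cxcl10, a chemokine that draws T cells, is at chr5:92777916-92778035 on the minus strand with an AP-1 site (TGANTCA) and a CCAAT box (CCAAT). Rela, an NF-κB subunit, is at chr19:5637363-5637482 on the plus strand with a GC box, and Foxa1, a forkhead factor of endoderm, at chr12:58647109-58647228 on the minus strand with 2 GC boxes.
Ins2: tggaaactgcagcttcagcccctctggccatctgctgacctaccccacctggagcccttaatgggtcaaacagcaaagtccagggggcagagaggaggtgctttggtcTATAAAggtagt
G6pc2: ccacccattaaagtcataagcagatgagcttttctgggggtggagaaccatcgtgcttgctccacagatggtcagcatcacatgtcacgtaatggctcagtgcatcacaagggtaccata
Nfkbia: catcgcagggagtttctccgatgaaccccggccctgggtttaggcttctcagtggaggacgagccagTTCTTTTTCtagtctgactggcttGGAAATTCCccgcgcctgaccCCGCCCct
Cxcl10: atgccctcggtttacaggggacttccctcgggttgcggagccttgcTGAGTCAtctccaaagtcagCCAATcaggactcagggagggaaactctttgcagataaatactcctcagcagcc
Rela: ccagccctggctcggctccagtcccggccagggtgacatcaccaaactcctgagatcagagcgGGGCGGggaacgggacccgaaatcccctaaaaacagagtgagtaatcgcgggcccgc
Foxa1: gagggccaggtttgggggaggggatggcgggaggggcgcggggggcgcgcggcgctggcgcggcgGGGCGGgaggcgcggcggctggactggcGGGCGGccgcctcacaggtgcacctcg

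The 5′-most coding TSS of Irf1, Wdr5 and Pdx1 were not covered although a region lay close by, and their 120 upstream bases are given in the same way. Irf1, an interferon-induced transcription factor, is at chr11:53583396-53583515 on the plus strand, with the nearest region 116 bp upstream of the TSS, and holds a GAS (TTCNNNGAA) and a CCAAT box. Irf1 was covered further inside the gene, at a TSS of a non-coding transcript. Wdr5, the TrxG subunit, is at chr2:27370557-27370676 on the plus strand, with regions 277 bp upstream and 524 bp downstream of the TSS, and holds 2 GC boxes. Pdx1, a transcription factor of the β-cell lineage, is at chr5:148081415-148081534 on the plus strand, with a region 335 bp upstream, and holds a CCAAT box. The Irf1 and Wdr5 stretches held 15 and 12 CpG, the Pdx1 stretch 4. Among the covered starts above, Foxa1 held 18, Rela 9, Nfkbia 7, Cxcl10 3, G6pc2 2 and Ins2 0, so the CpG counts of the covered and the uncovered starts shown overlapped. Cxcl10, Rela, Foxa1 and the uncovered starts were chosen after their values were seen.
Irf1: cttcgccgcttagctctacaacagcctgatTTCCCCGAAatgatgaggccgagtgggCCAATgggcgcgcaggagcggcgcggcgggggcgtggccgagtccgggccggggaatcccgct
Wdr5: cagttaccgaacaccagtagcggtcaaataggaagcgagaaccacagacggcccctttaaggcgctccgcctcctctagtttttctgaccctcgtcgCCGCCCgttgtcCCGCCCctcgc
Pdx1: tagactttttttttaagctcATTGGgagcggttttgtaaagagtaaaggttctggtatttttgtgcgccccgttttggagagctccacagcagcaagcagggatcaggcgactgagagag

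Members over starts on both strands are shown by the whole stretch between the starts of 3 gene pairs, chosen after their values were seen for having over 100 bases between the starts and a gene of the lists below. Cox4nb and Cox4i1, the latter a subunit of the last enzyme of the respiratory chain, face away from each other at chr8:123192013-123192189, inside a region of 5200 bp. Their 177 bases hold 8 matches to the GC box, several of them overlapping, an ETS site (CCGGAAG) and 27 CpG. Hist1h2ah and Hist1h2bk, which encode core histones, flank chr13:22127513-22127689 in a region of 5800 bp, with 3 CCAAT boxes and 3 CpG. Ndufa5, a subunit of respiratory complex I, and Asb15 flank chr6:24478014-24478143 in a region of 3200 bp, with 1 CpG and no match. All 3 are written on the plus strand of mm9, and in each the gene named before the slash reads to the left.
Cox4nb/Cox4i1: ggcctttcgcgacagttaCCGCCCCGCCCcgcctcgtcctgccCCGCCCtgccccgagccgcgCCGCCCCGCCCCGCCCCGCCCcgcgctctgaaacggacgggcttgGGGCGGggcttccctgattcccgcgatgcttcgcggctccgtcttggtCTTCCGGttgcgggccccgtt
Hist1h2ah/Hist1h2bk: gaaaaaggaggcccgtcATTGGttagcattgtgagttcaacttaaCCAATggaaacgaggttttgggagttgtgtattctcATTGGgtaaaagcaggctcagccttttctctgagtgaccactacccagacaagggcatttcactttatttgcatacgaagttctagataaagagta
Ndufa5/Asb15: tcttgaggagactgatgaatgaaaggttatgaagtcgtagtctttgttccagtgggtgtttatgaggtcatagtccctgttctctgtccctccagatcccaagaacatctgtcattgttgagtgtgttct

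The members were wider than other regions. The middle member measured 2400 bp, the quartiles were 1400 and 4200 bp, and the range was 200 to 85400 bp. The 8592 regions that came within 2 kb of a coding TSS without covering it had a median of 1200 bp, and so did the 47480 regions farther away. Members wider than 10 kb numbered 490 (5.41%), against 2.99% of the nearby and 1.21% of the farther regions. A wide region meets a TSS more often than a narrow one whatever the mark does, so the difference follows in part from the rule and is given as a description. Of all regions of 200 to 600 bp 3.14% were members, of those of 1600 to 3000 bp 19.8%, and of those over 10 kb 37.1%. Only 12 members were 200 bp wide.

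**Figure D1:**
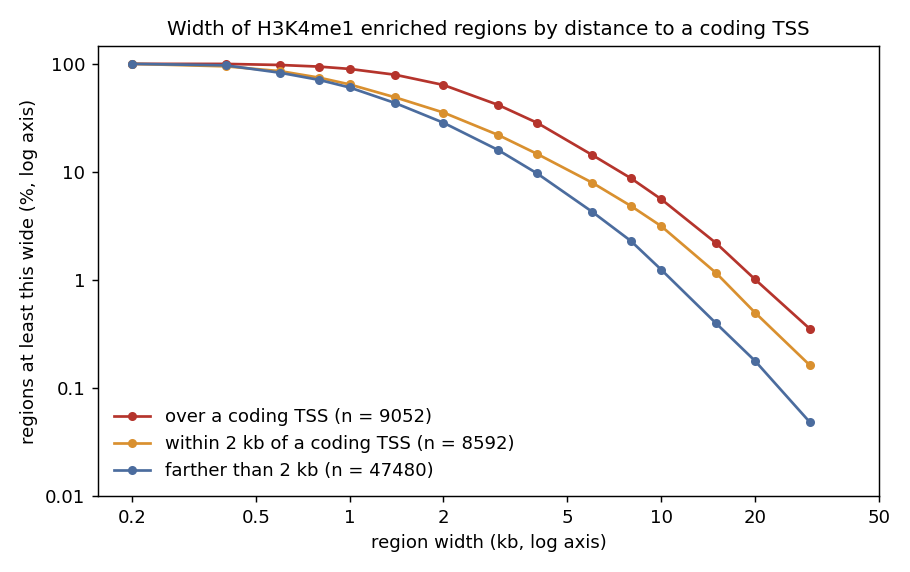
Share of regions (%, log axis) that are at least as wide as the value on the horizontal axis (kb, log axis), for regions over a coding TSS, regions within 2 kb of one and regions farther away, in 1 library. The line for the 9052 members lies above the others at every width over 200 bp, with a median width of 2400 bp against 1200 bp in both other classes.

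The members were richer in CpG than other regions, also among regions of like width. CpG observed over expected, which is near 1 in unmethylated CpG islands and low in the bulk of the genome, had a median of 0.447 in members, 0.248 in regions within 2 kb and 0.206 in farther regions. GC content had medians of 52.1%, 45.3% and 45.2%. Among regions of 800 to 1400 bp only, the CpG medians were 0.547, 0.281 and 0.210, and among those of 1600 to 3000 bp 0.511, 0.232 and 0.204. The members over 10 kb came closest to the rest, at 0.249. Of the members' bases, 6.93% were coding sequence, 10.4% other exon, 63.6% intron and 19.1% outside coding genes. In regions farther than 2 kb coding sequence made up 0.996% and bases outside coding genes 37.6%. Each member holds a coding TSS by the rule and the other regions hold none. These contrasts thus follow in part from the rule and are given as a description. The gap from a member to its nearest neighbouring region had a median of 5600 bp, close to the 5400 bp of farther regions, whereas regions near but not over a TSS had a neighbour at 2400 bp.

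Around the TSS, H3K4me1 coverage differed with the CpG class of the start. A start was called CpG-rich when a 500 bp window between 700 bp upstream and 200 bp downstream of the 5′-most TSS had CpG observed over expected above 0.75 and GC above 55%, CpG-poor when no window exceeded 0.48, and intermediate otherwise. At the 5′-most TSS itself a region lay over 43.4% of the 7406 CpG-rich starts (interval 42.3 to 44.5), 48.6% of the 5267 intermediate (2562 genes) and 13.3% of the 8745 CpG-poor (12.5 to 14.0). In CpG-rich genes coverage was higher on both sides than at the start. It was 47.7% (46.6 to 48.9) at 400 bp upstream, 42.9% (41.8 to 44.0) at 200 bp downstream and 54.4% (53.3 to 55.5) at 1500 bp downstream. The share of intermediate genes had no such dip, with 42.6% at 400 bp upstream, 48.9% at 200 bp downstream and 38.8% at 1500 bp downstream. CpG-poor genes rose from 10.1% at 400 bp upstream to 13.7% at 200 bp downstream. Over all coding genes coverage was 32.4% at the TSS and highest at 1000 bp downstream, at 33.8%. At 10 kb upstream 8.09% and at 10 kb downstream 11.7% of all genes had a region.

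**Figure D2:**
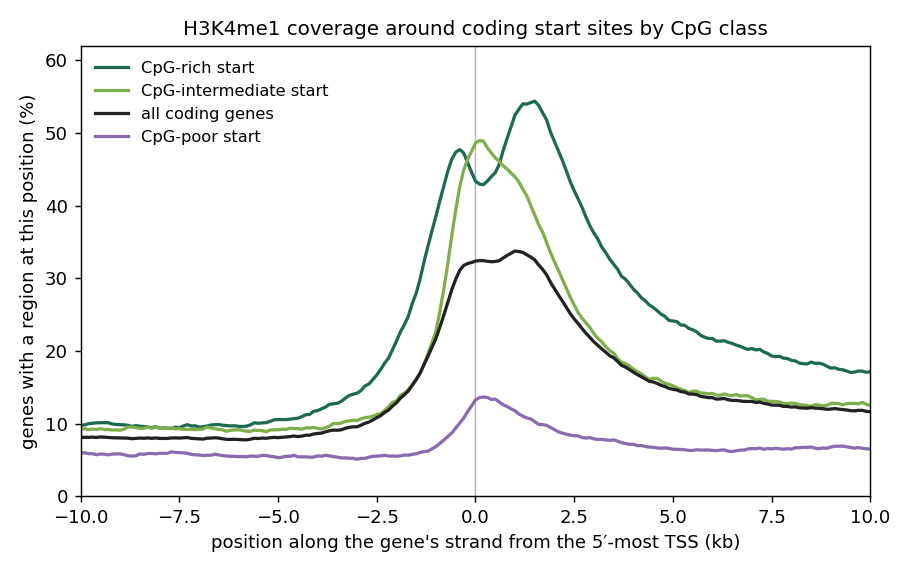
Share of protein-coding genes (%) that have an H3K4me1 region at each position from 10 kb upstream to 10 kb downstream of the 5′-most TSS, in steps of 100 bp along the gene's strand, for all 21418 genes and for each CpG class. The CpG-rich line dips from 47.7% at 400 bp upstream to 42.9% at 200 bp downstream and reaches its highest value, 54.4%, at 1500 bp downstream, while the CpG-intermediate line is highest at 100 bp downstream (49.0%).

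Single genes were compared between positions. Of the CpG-rich genes, 2134 had a region at 1500 bp downstream but not at the TSS, and 1318 had one at the TSS but not at 1500 bp. In intermediate genes the order was the other way round, with 789 and 1309. Both flanks, 400 bp upstream and 1500 bp downstream, were covered in 2169 CpG-rich genes, and in 392 of these (18.1%, interval 16.5 to 19.8) the TSS between them was bare. The TSS was also bare in 145 of 1176 such intermediate genes (12.3%, 10.5 to 14.3) and in 13 of 394 CpG-poor genes (3.30%, 1.77 to 5.58), so a bare TSS between covered flanks was not limited to CpG-rich genes. Counted with a distance of 2 kb and over all annotated TSS of a gene, 1360 CpG-rich genes (18.4%) had no covered TSS and a region on either side, 368 intermediate genes did (6.99%), and 86 CpG-poor genes (0.983%). The uncovered stretch between those flanking regions had a median of 1600 bp, with quartiles of 1200 and 2200 bp. Wdr5 above is an example, and so is Ifngr2, a chain of the IFNγ receptor, with regions 517 bp upstream and 684 bp downstream of a TSS. No region lay within 2 kb in 6.83% of CpG-rich, 19.7% of intermediate and 70.2% of CpG-poor genes.

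Genes with any covered TSS divided by class in a similar way. They made up 3997 of 7406 CpG-rich genes (54.0%), 2974 of 5267 intermediate (56.5%) and 1731 of 8745 CpG-poor genes (19.8%). A gene with more annotated TSS has more chances to be covered, and 53.9% of genes with 2 or more TSS positions were, against 23.8% of the 9440 genes with 1. Within those 9440 genes the shares were 44.8%, 41.4% and 7.70%. Among the covered genes, 45.9% were CpG-rich, 34.2% intermediate and 19.9% CpG-poor, compared with 34.6%, 24.6% and 40.8% of all coding genes.

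The members reached farther into the gene than upstream of it. In the 8368 members that held starts of 1 coding gene, the distance from the 5′-most covered TSS to the upstream edge had a median of 731 bp (quartiles 392 and 1299), and that to the downstream edge 1410 bp (709 and 2566). The downstream edge was the farther one in 5948 of them (71.1%, interval 70.1 to 72.1). Measuring from the 5′-most of several TSS favours the downstream side by construction. In the 4248 such members that held a single TSS position the share was 63.1% (61.6 to 64.5), with medians of 769 and 1176 bp. It was 67.8% where that position was also the 5′-most TSS of its gene. By class the share over all 1-gene members was 70.5% for CpG-rich, 73.8% for intermediate and 68.1% for CpG-poor genes.

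Some starts lay closer to an edge than the 200 bp step of the grid. The TSS lay under 200 bp from the upstream edge in 12.1% and under 200 bp from the downstream edge in 6.32% of the 1-gene members. Nfkbia was covered by a region of 7000 bp that ended 33 bp downstream of its TSS, so that it lay almost wholly upstream of the gene. G6pc2 showed the opposite, with 2027 bp upstream and 10372 bp downstream. Kcnj11, the pore-forming subunit of the β-cell potassium channel, was near the middle of its region of 12800 bp, with 6793 bp upstream and 6006 bp downstream. In 187 of these members (2.23%) the region held the gene from end to end, among them Bcl3, a partner of NF-κB, whose 14309 bp lay in a region of 21200 bp, and Zc3h12a, a ribonuclease that limits inflammatory mRNAs, 9418 bp long in a region of 15000 bp. Both were named after their values were seen.

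**Figure D3:**
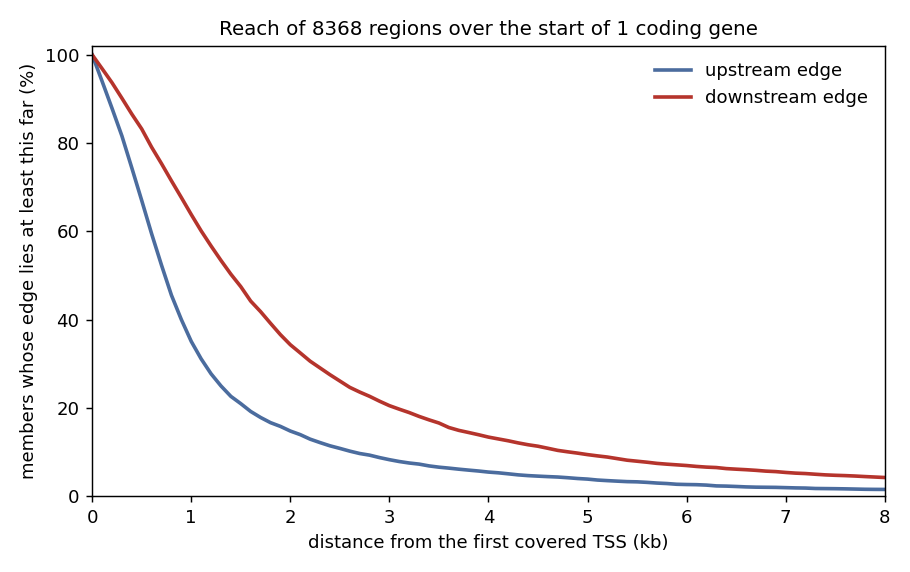
Share of the 8368 members over the start of 1 coding gene (%) whose upstream or downstream edge lies at least as far from the 5′-most covered TSS as the value on the horizontal axis (kb). The downstream line lies above the upstream line throughout, with medians of 1410 and 731 bp.

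Starts of 1 coding gene were found in 8368 members (92.4%), of 2 genes in 644, of 3 genes in 38 and of 4 genes in 2. Of the 684 members over 2 or more genes, 570 (83.3%) held starts on both strands. TSS positions were more numerous than genes, with 1 position in 4250 members (47.0%) and 5 or more in 1165 (12.9%). The highest number, 23 positions, lay in the region of 10800 bp over Slc29a1, a nucleoside transporter. In 692 members (7.64%) a gene of another type began as well, lincRNA in 322, processed transcripts in 219 and miRNA in 60. In the regions over no coding TSS the share with such a start was 1.56%.

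Regions over 4 genes were found at a chromosome 2 locus, where 14600 bp held the starts of B230208H17Rik, Gm996, Mamdc4 and Phpt1, all on the minus strand, and in the histone cluster of chromosome 13, where 8400 bp held Hist1h2ai, Hist1h2bl, Hist1h2bm and Hist1h3h, of which Hist1h2bl alone is on the minus strand. The next 3 by number of genes and TSS were the region of Rpl7a, Surf1 and Surf2 with 18 TSS positions, that of Nek8, Rpl23a and Tlcd1 with 17, and that of Ehbp1l1, Fam89b and Sssca1 with 10. Rpl7a and Rpl23a encode ribosomal proteins and Surf1 an assembly factor of cytochrome c oxidase.

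Head-to-head gene pairs were looked at over the whole annotation. In 784 pairs the 5′-most TSS of a minus strand gene and of a plus strand gene lay at most 1 kb apart, facing away from each other, and 557 of them (71.0%) were CpG-rich at both. Both starts were in the same region in 252 pairs (32.1%, interval 28.9 to 35.5), a single one was covered in 44 (5.61%), and neither in 488 (62.2%). Counted by gene, the 5′-most TSS was covered in 32.4% of all coding genes and in 43.4% of CpG-rich ones. Counting all annotated TSS, 468 members held a facing pair, 378 of these at most 1 kb apart, with a median of 153 bp between the starts. The closest were Irak3 and Tmbim4, Dhrs1 and 2610027L16Rik, 5730494M16Rik and AW554918, and Mrps21 and C920021L13Rik, each 3 bp apart, and Trp53i13 and Abhd15, 4 bp apart. Irak3 encodes an inhibitor of the IL-1 receptor pathway, and its member was 1800 bp wide.

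The widest members ran through the bodies of genes. The widest of all, 85400 bp on chromosome 4 from 45455001 to 45540400, lay inside Shb, which encodes a signalling adaptor, and held 3 of the 5 start clusters of the gene but not the first. That cluster was in a member of its own, 1800 bp wide. The region of 64000 bp in 2010111I01Rik reached 31176 bp upstream and 32823 bp downstream of an internal TSS. Sfi1 and Rps6ka2, a ribosomal S6 kinase, were covered at their 5′-most TSS by regions of 55600 and 52800 bp that ran 52265 and 51136 bp into the gene. CpG observed over expected was between 0.190 and 0.255 in these 4 regions, below the members' median of 0.447.

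In genes with several promoters the regions picked out some starts and left others bare. TSS of a gene more than 1 kb apart were put in separate clusters, and 8062 genes had 2 or more. All clusters were covered in 487 of these genes (6.04%), some in 4274 (53.0%) and none in 3301 (40.9%). Where some were covered, the first cluster was among them in 2883 genes (67.5%) and bare in 1391 (32.5%). Of the 1651 genes with exactly 2 clusters and 1 covered, the first was the covered one in 1197 (72.5%, interval 70.3 to 74.6). Over genes with any number of clusters, 1768 of the 8702 covered genes (20.3%) had a covered TSS other than the 5′-most only, and 653 (7.50%) had only TSS of transcripts that are not themselves annotated as coding, such as retained introns.

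Of a list of 10 genes known for alternative promoters, each had a covered TSS, which genes with many TSS have more often than others. The share was 40.6% over all coding genes and 53.9% over those with 2 or more TSS positions. At the 5′-most TSS 4 of the 10 were covered, against 32.4% of all coding genes. The starts of the 10 genes are set out in the plot by distance from the first cluster. Hnf4a, a nuclear receptor of liver and β-cells, was covered at the third of its 4 clusters by a region of 1000 bp, while the region nearest to the first was 3727 bp away. Pax6, a factor of endocrine and eye development, had 6 of 11 clusters covered, 5 of them in a region of 14200 bp, and a region 453 bp from its bare first cluster. Insr and Ghr, the insulin and growth hormone receptors, were covered at the first cluster and not at the second. In Pparg, Runx1 and Foxp1 the first cluster was bare and a later one covered, at 60845, 128738 and 237590 bp downstream. Prlr, the prolactin receptor, had 3 of 7 clusters covered and Mitf 2 of 5, while Pklr, a pyruvate kinase, had a single cluster, in a region of 1800 bp.

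**Figure D4:**
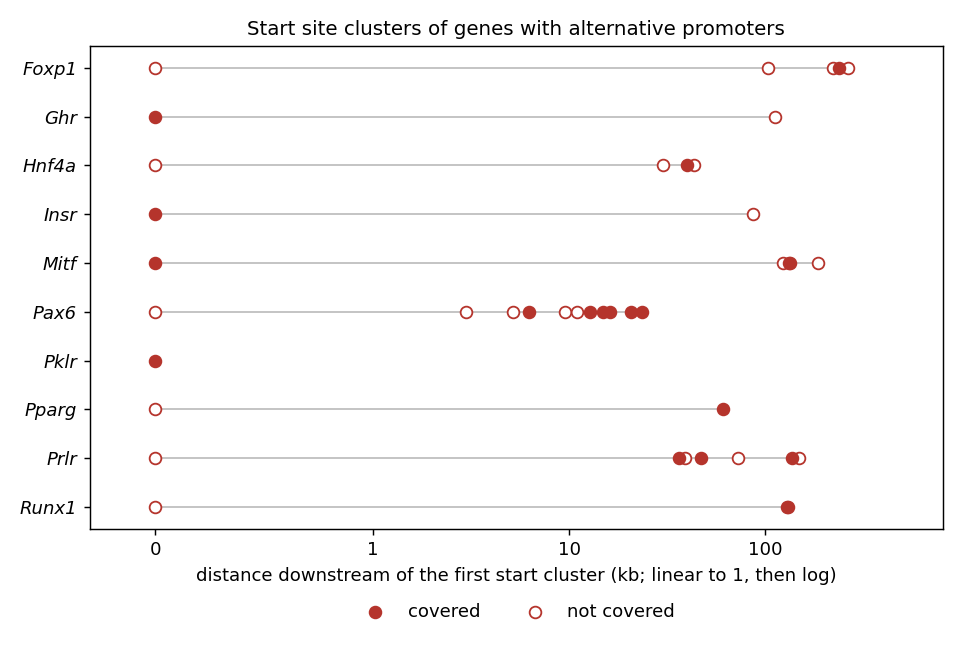
Start site clusters of 10 genes with alternative promoters, by distance downstream of the gene's first cluster (kb, linear to 1 and logarithmic beyond). Filled points are clusters with a TSS inside an H3K4me1 region and open points are bare clusters. Hnf4a, Pparg, Runx1, Foxp1, Pax6 and Prlr have an open first point and a filled later one.

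Interferon and NF-κB response genes were covered in a share whose interval lay above the 40.6% of all coding genes with a covered TSS. The intervals of the other cytokine and islet lists, given below, included 40.6%. In a list of 39 interferon and NF-κB response genes 28 had a covered TSS (71.8%, interval 55.1 to 85.0), 21 of them at the 5′-most TSS. The lists were chosen with results of these data known and their genes differ in number of TSS, so the counts describe the lists only. Stat2, Irf7, Irf8 and Irf9, the NF-κB subunits Nfkb2, Rela and Relb, Nfkbia and the adhesion molecule Icam1 were covered at the 5′-most TSS. The signalling inhibitor Socs3 was too, although that TSS belongs to a non-coding transcript and its coding TSS was bare. Nos2, the inducible nitric oxide synthase, was covered by a region of 9400 bp with 4888 bp upstream and 4511 bp downstream of its only TSS. So were the interferon-induced GTPases Gbp2, Gbp3, Igtp and Irgm2, the ubiquitin-like Isg15, the immunoproteasome genes Psmb8 and Psmb10, the proteasome activators Psme1 and Psme2, and Tapbp, which loads peptide onto MHC class I.

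Other response genes were covered inside the gene only, and these are weaker cases of a covered start. The internal TSS of Irf1, Nfkb1, Stat3 and Tap2 that lay in a region belonged to transcripts that are not coding. Tnfaip3, an inhibitor of NF-κB, Psmb9 and the peptide transporter Tap1 had another coding TSS covered. The start that Psmb9 and Tap1 share was bare, with a region of 3800 bp inside Psmb9 and one of 12800 bp that reached from Tap1 over Psmb8. Among the 11 genes with no covered TSS, Socs1, Gbp5, B2m, Cd274 and Ifit1 had a region within 2 kb on both sides, and Irf2, Gbp6, Sod2, Irgm1 and Cebpb had one upstream. Only Ifit3 had none, its nearest region lying 11821 bp away.

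The receptors of the cytokines in the medium were covered at 5 of 6 genes (83.3%, interval 35.9 to 99.6), each at the 5′-most TSS. Il1r1, the IL-1 receptor, had the widest region of them, 19400 bp, followed by the TNFα receptor gene Tnfrsf1a at 8800 bp, Ifngr1 at 3800 bp, Il1rap at 2400 bp and Tnfrsf1b at 1600 bp. Ifngr2 was the uncovered one. Of 29 chemokine and cytokine genes 13 were covered (44.8%, interval 26.4 to 64.3), close to the share of all coding genes. Cxcl1, Cxcl2, Cxcl5, Cxcl10, Cxcl12, Cxcl14, Cx3cl1, Ccl2, Il15, Il33 and Csf1 were covered at the 5′-most TSS, Csf1 by the widest region, 10600 bp. Cxcl16 and Il1b were covered at a TSS of a non-coding transcript. In 15 of the others no region came within 2 kb, among them Tnf, Il6, Il1a, Ccl3, Ccl4, Ccl5 and Cxcl9, while Il18 had a region 178 bp upstream. Of this list 20 genes were CpG-poor at the 5′-most TSS.

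Of 11 genes of β-cell function 5 had a covered TSS (45.5%, interval 16.7 to 76.6), 3 of them at the 5′-most. Those were Kcnj11, the glucose transporter Slc2a2 with a region of 12600 bp, and Slc30a8, which brings zinc into insulin granules, with one of 3000 bp. Ins2 and G6pc2 were covered at another coding TSS. The Ins2 region of 2200 bp held 7 of its 8 TSS positions, and the remaining one lay outside it. Pdx1, Neurod1, Mafa, Ins1 and Abcc8, the regulatory subunit of the potassium channel, were bare with the nearest region 335 bp and 293 bp upstream of the first 2 and 1152 bp, 988 bp and 1403 bp downstream of the others. Iapp, the amyloid peptide secreted with insulin, had its nearest region 3234 bp downstream of a TSS.

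Of 16 genes of islet hormones and granules only Scg5, Ptprn2 and Vgf were covered (18.8%, interval 4.05 to 45.6). In 8 of the bare genes a region lay within 2 kb upstream only, and Ptprn, a granule membrane protein, had one on both sides, 618 bp upstream and 1583 bp downstream. The upstream distance was 136 bp for Scg2, 164 bp for Cpe, 379 bp for Chga, 614 bp for Chgb and 798 bp for Scg3. The peptide hormone genes Gcg, Sst, Pyy and Ghrl had none within 2 kb. Of 15 islet transcription factors 7 were covered (46.7%, interval 21.3 to 73.4). Foxa1, Foxa2 and Neurog3 were covered over the 5′-most TSS, by regions of 4000, 16000 and 1800 bp, while Pax6, Rfx6 and Hnf4a were covered at later coding TSS. Glis3, annotated under 2 gene identifiers, was covered at the 5′-most TSS of 1 of them. Insm1, Mnx1, Nkx6-1 and Rfx3 were bare with a region 57, 342, 356 and 763 bp upstream.

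The TrxG genes that code for the H3K4 methylation machinery were covered in 6 of 12 cases (interval of the share 21.1 to 78.9%), and 33.3% were covered at the 5′-most TSS, against 40.6% and 32.4% of all coding genes. Rbbp5, Men1, Paxip1 and the demethylase gene Kdm6b were covered at the 5′-most TSS, Setd1a and Ncoa6 at a non-coding transcript. Wdr5, Ash2l, Setd1b, Mll1 and Mll3 were bare with regions on both sides, and Dpy30 had one 934 bp downstream.

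Gene families of general cell functions were counted in the same way, against 40.6% of all coding genes with a covered TSS. At any TSS, covered were 34 of 78 ribosomal protein genes (43.6%, for example Rpl10a, Rpl11 and Rpl12, but not Rpl10l, Rpl13 and Rpl14), but 17 at the 5′-most TSS (21.8%, against 32.4% of all coding genes) and 19 at a TSS of a coding transcript (24.4%, against 37.6%). For proteasome subunits the count was 17 of 38 (44.7%, with Psma1 and Psma7 and without Psma2 and Psma3), for the respiratory chain 42 of 77 (54.5%, with Atp5b and Atp5d and without Atp5a1 and Atp5c1) and for translation factors 33 of 63 (52.4%, with Eef1a2 and Eef1d and without Eef1a1 and Eef1b2). At the 5′-most TSS the shares were 34.2% for proteasome subunits, 48.1% for the respiratory chain and 36.5% for translation factors. A region lay on both sides of a bare TSS in 18 further ribosomal protein, 13 respiratory chain and 14 translation factor genes. The intervals of ribosomal protein, proteasome and translation factor genes, 32.4 to 55.3%, 28.6 to 61.7% and 39.4 to 65.1% at any TSS, include 40.6%. So do those of the histone, Hox and Zfp genes named next. The interval of the respiratory chain, 42.8 to 65.9%, lies above it. Of these 77 genes 44 were CpG-rich, a class covered at 54.0% over all coding genes. Among other large families, histone genes were covered in 28 of 67 cases (41.8%, with Hist1h1a and Hist1h1b and without Hist1h1c and Hist1h1e), Hox genes in 18 of 39 (46.2%, with Hoxa10 and Hoxa11 and without Hoxa2), Zfp zinc finger genes in 141 of 358 (39.4%) and solute carriers in 190 of 341 (55.7%, interval 50.3 to 61.1).

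Olfactory receptor, vomeronasal receptor and defensin families were almost bare. None of 1081 olfactory receptor genes was covered (upper limit 0.341%), 1 of 318 vomeronasal receptor genes was, Vmn2r83, and 1 of 53 defensin genes, Defb1, in a region of 17600 bp. Genes of a keratin name pattern, which was not limited to keratins themselves, were covered in 7 of 97 cases (7.22%). Among them were Krt7 and Krt19 of duct cells. These families are CpG-poor, with 1063 of the olfactory receptor genes in that class. By chromosome, 30.3% (chromosome 14) to 48.7% (chromosome 11) of coding genes were covered, with a median of 41.4%. Without olfactory and vomeronasal receptor genes the range was 31.7% to 51.2%, and the share on chromosome 7 was 41.3% in place of 33.4%.

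Markers of other pancreatic cells were checked as well, in short lists whose intervals, except that of duct markers (47.8 to 100%), include the 40.6% of all coding genes. All 5 duct markers were covered, Krt7, Krt19, Sox9 and Cftr at the 5′-most TSS and Spp1 at another coding one, with regions of 1600 to 15200 bp. Of 7 endothelial markers 5 were covered, Pecam1, Kdr, Tek and Flt1 at the 5′-most TSS by regions of 400 to 2200 bp and Vwf at a non-coding transcript. Cdh5 and Tie1 were bare, with no region within 2 kb. Of 9 acinar markers only Cpb1 was covered, at a non-coding transcript, while Cpa1, Cela1, Cel and Ptf1a had no region within 2 kb. Of 10 leukocyte markers only Cd68 was covered and the rest, Ptprc, Cd3e and Itgam included, had no region within 2 kb. The interval of their share, 0.253 to 44.5%, includes the 19.8% of all CpG-poor genes, the class of all 10 leukocyte markers. Apoa2 was the only covered gene of 8 liver markers and none of 6 muscle markers was covered. The part that duct and endothelial cells had in the list was not tested.

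**Figure D5:**
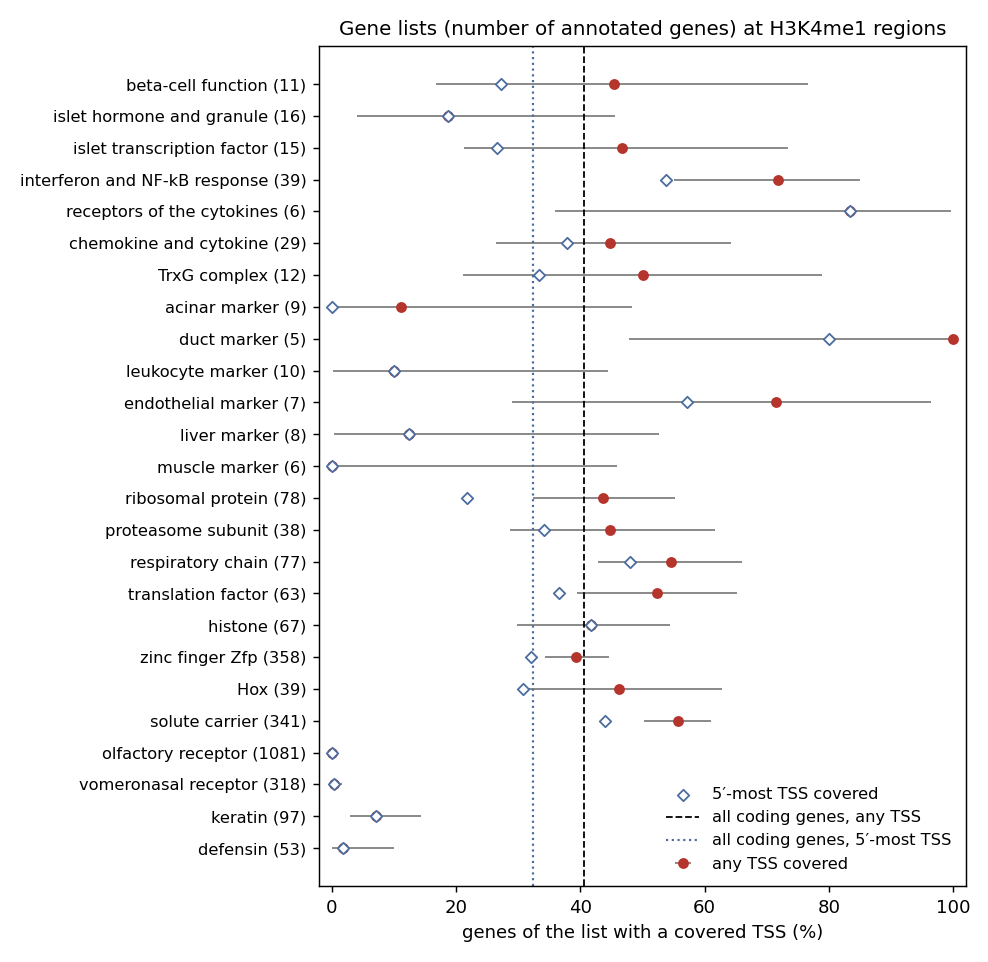
Share of each gene list with a covered TSS (%). Filled points count any annotated TSS, with bars for 95% exact binomial intervals (counting error only), and open diamonds count the 5′-most TSS only. The dashed line is the 40.6% of all coding genes with any covered TSS and the dotted line the 32.4% with a covered 5′-most TSS, and the number of annotated genes is in brackets. Interferon and NF-κB response genes lie at 71.8% and olfactory receptor genes at 0.

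Shares of promoters with a TATA box or a GC box differed little between covered and uncovered CpG-rich genes, and by more within CpG-poor genes. The 300 bp from 250 bp upstream to 50 bp downstream of the 5′-most TSS were searched on both strands, without correction for overlap between motifs. A TATA box was present in 13.5% of all coding genes, in 7.72% of those with a covered TSS and in 17.5% of the others. Within CpG-rich genes the shares were 4.65% and 4.58%, and within CpG-poor genes 12.4% and 25.5%. The GC box was present in 43.7% of all genes, in 59.0% of covered and 33.3% of uncovered genes, but in 78.9% and 77.7% of the CpG-rich and 21.3% and 8.41% of the CpG-poor ones. An ETS site was present in 18.5% of covered and 22.2% of uncovered CpG-rich genes. An NF-κB site was found in 1.24% of all coding genes, in 1.14% of covered and 1.31% of uncovered ones. It was present in Icam1, Isg15, Nfkb1 and Nfkbia among the 28 covered response genes, and in Csf1, Cxcl1, Cxcl2, Cxcl5 and Cxcl10 among the 13 covered chemokine and cytokine genes. The ISRE core was present in 8.86% of all genes, in 6.95% of covered and 10.2% of uncovered ones. Of the 28 it was present in 7, Gbp2, Gbp3, Igtp, Irgm2, Isg15, Nfkbia and Tnfaip3. Matches in the uncovered genes of these lists were not counted. A match is a run of letters and was not shown to be bound, and the searched window is not the covered TSS in genes covered elsewhere.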

How the data were processed

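1 H3K4me1 ChIP-seq library of cytokine treated islets was used. The authors aligned the reads with bowtie2 to mm9 (Bowtie2 2.2.1 in the submitters' processing notes), identified enriched regions with ChromHMM and deposited their chromosome, start and end, without counts, scores or p-values, so that depth and precision per region are unknown. The authors' methods merge regions of treated and untreated islets and remove loci of very low H3K4me1 level in both. The deposited list holds fewer regions than the methods' final merged set and so is not that set. Whether the filter on low levels was applied to it is not given in the sources used here, nor is the version of ChromHMM. 1 was added to each start. TSS, gene types, exons and sequence came from GENCODE M1 and the genome of the same build. Members, gene lists and motifs were chosen with earlier results of these data known, and the named genes by a rule: the 5 widest members, the 5 over most genes, genes of the islet and cytokine lists, the first in alphabetical order of other lists, the alternative promoter genes, and the 5 closest head-to-head pairs. A few genes were taken out of the hand-written lists and are not reported here, and of the genes counted not all are named. Shares have 95% exact binomial intervals (scipy 1.17.1, Python 3.11.15, pandas 2.3.3). With 1 library no test between groups was run. Region lookup, merging, strand windows and CpG classes were tested on simulated data. Alternatives changed the width filter, the merging of gaps, the margin at region edges, the TSS and genes used, chromosome X and the CpG rule. RNA-seq samples were not analysed here.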

Additional observations from a re-analysis of the deposited data

How the results depend on the processing

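Of 92 values recomputed under alternative settings, 39 stayed within the 95% interval of the value given above, or within 1.5 times of it for the number of members (6339 to 10206) and their median width (2400 to 2800 bp), and 53 moved beyond it. With regions of at least 400 bp only, members were 14.3% of regions. With regions of at least 1000 bp they were 19.2% of regions, 37.1% of coding genes were covered, 72.7% of 1-gene members reached farther downstream, 8.17% of members held 2 or more genes, CpG-rich genes were covered at 51.2%, CpG-poor genes at 17.0%, and coverage was 29.6% at the 5′-most TSS and at most 31.4% within 5 kb of it. In the same order, merging regions over gaps of up to 1000 bp gave 14.7%, 41.8%, 73.2%, 8.39%, 56.7% (CpG-rich), 34.0% and 34.4%. Asking for a TSS at least 200 bp inside both edges gave 12.0% of regions, 35.8% of genes, 72.7% farther downstream, 49.4% of CpG-rich and 16.1% of CpG-poor genes, 27.9% at the TSS and 28.7% at most. Extending regions by 200 bp on each side gave 15.7%, 44.7%, 68.4%, 59.9%, 21.7%, 36.6% and 40.2% for these. With TSS of coding transcripts only, members were 12.3% of regions, 37.6% of genes were covered, 72.5% of 1-gene members reached farther downstream, and CpG-rich and CpG-poor genes were covered at 49.4% and 17.6%. With only the 5′-most TSS of each gene these were 9.73%, 32.4%, 73.8%, 43.4% and 13.3%, and 8.98% of members held 2 or more genes. Without genes named by a Gm number or Rik, members were 13.1% of regions, 44.2% of genes were covered, 5.79% of members held 2 or more genes, CpG-poor genes were covered at 23.0%, and coverage was 34.9% at the TSS and 36.6% at most. With chromosome X, 39.1% of genes and 18.9% of CpG-poor genes were covered, with 31.1% at the TSS and 32.5% at most. With CpG observed over expected in 1000 bp around the TSS as the rule, CpG-rich genes were covered at 55.3% and CpG-poor genes at 17.4%.

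In each of these settings CpG-rich genes were covered more often than CpG-poor genes and, where the regions, TSS or genes were changed, most 1-gene members reached farther downstream. The other CpG rule leaves that share as it is. The position of highest coverage over all coding genes moved from 1000 to 200 bp downstream when gaps were merged or a margin was set. No paired analysis was possible because there was 1 library, and leaving out replicates did not apply. Depth was unknown, which limits what a bare start means. The cause of each shift was not tested.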
